A study of Mus musculus with 4 samples.

Results

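Molar germs of mouse embryos at embryonic day (E) 12 were compared with germs at E11, across the step in which the thickened dental epithelium forms a bud. The comparison took the log2 ratio of E12 over E14 and subtracted the log2 ratio of E11 over E14 for each gene, so that a positive difference means a higher level at E12. Each ratio came from 1 two-colour oligonucleotide array, on which E14 RNA was labelled with Cy3 and E12 or E11 RNA with Cy5. The E12 germs and the E11 germs were both of strain C57BL/6 with no treatment named, taken from the first molar of the lower jaw, and pooled as whole germs, so that epithelium, mesenchyme, vessels, blood and any adjoining jaw tissue were extracted together. Both arrays lay on the same slide and shared the E14 pool, which also served the arrays of E16 and E18. The genes compared were those with a non-control probe that the scanner software called well above background, in the Cy5 channel of 1 or both of these arrays: 16439 genes, of 17317 that met this on any of the 4 arrays of the series. Of them 15017 had their brightest probe above background on both arrays, 1165 at E12 only and 257 at E11 only. Genes above background on 1 array only entered through that stage, and the filter itself leans their differences towards it. With 1 pool per stage there was no biological replicate and no test, and every value below describes these 2 pools.

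The mouse molar begins as a local thickening of the oral epithelium over mesenchyme that descends from the cranial neural crest. Signals of the FGF, BMP, hedgehog and Wnt families pass from the epithelium to the mesenchyme and back, the epithelium grows into the mesenchyme as a bud, and mesenchyme condenses around it. The T-box gene Tbx1 is among the marks of the dental epithelium, and Msx1, Pax9, Barx1, Lhx6 and Lhx8 mark the mesenchyme. The labelled tissue carried these marks: Tbx1, Msx1, Pax9, Barx1, Lhx6, Lhx8, Krt14 and Cdh1 were all well above background at both stages. Shh, a signal of the dental epithelium, was well above background at E12 and not at E11.

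Most genes differed little between the stages. The difference had a median of 0.00 and an SD over genes of 0.32, and 5% of genes lay above 0.53 and 5% below -0.48. At least 2-fold apart were 170 genes, 117 of them higher at E12 (0.712% of the genes compared) and 53 lower (0.322%). At a fold of 1.5, 636 genes were higher (3.87%) and 433 lower (2.63%). Of all genes 8296 lay above 0 and 8143 below 0. These shares over all genes are the reference for the counts of every list below. The normalization centres the ratios of each array near 0, so the median of 0.00 and the even split are largely set by it. The E14 channel varied less: the same E14 RNA, read in Cy3 on the same 2 arrays, differed with an SD of 0.10 over genes. It was at least 2-fold apart for 6 genes (0.0365%) and at least 1.5-fold apart for 35 (0.213%). This repeat was scaled between arrays and does not cover variation in Cy5 labelling or between pools. It is therefore not the error of the difference. Over 164 probes printed as 10 spots, the SD of a difference between single spots had a median of 0.09. Cy5 signals were low, with a median mean signal of 71.7 at E12 over a background of 33.0 and of 61.3 at E11 over 33.5, and the offset used in the background correction pulls the ratios of dim genes towards 0. With median centring of each array in place of the intensity-dependent loess, the median of all genes was 0.12 and 89.5% of the 2-fold differences were higher at E12, against 68.8% here.

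**Figure D1:**
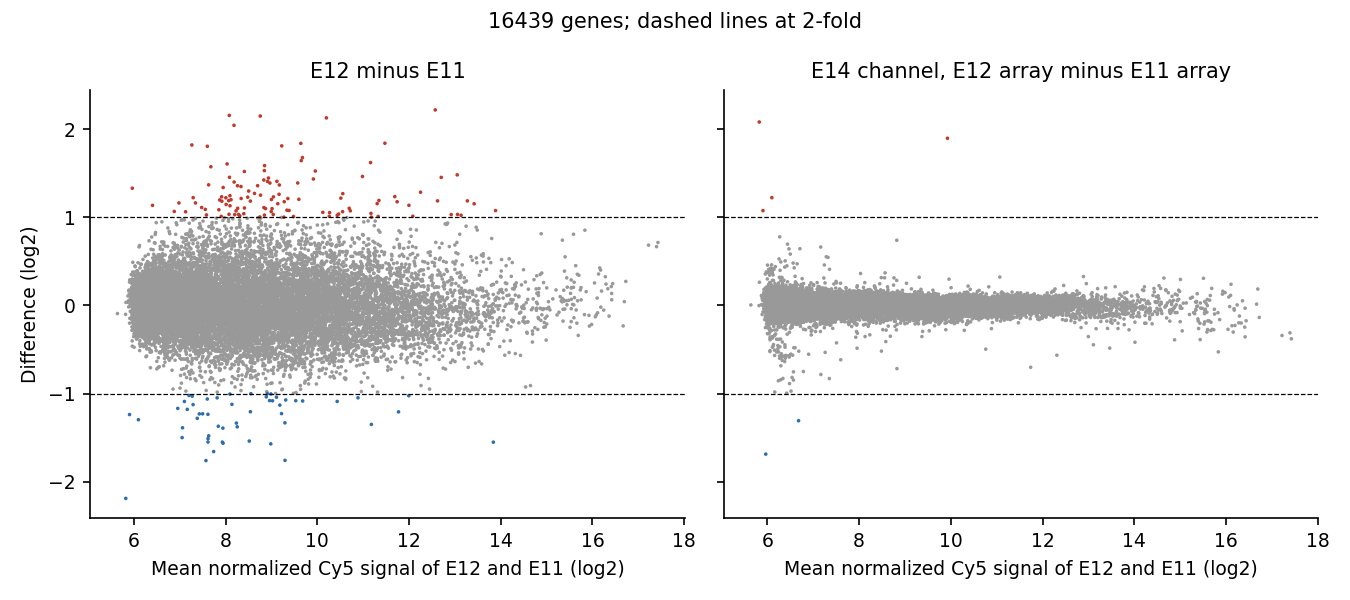
Difference of each of the 16439 genes against its mean normalized Cy5 signal over E12 and E11, both in log2 units. The left panel shows E12 minus E11 and the right panel the E14 channel of the same 2 arrays. Dashed lines mark 2-fold, and coloured points lie beyond them. The 170 genes beyond 2-fold on the left lie over most of the range of signal, while of the 6 on the right, the repeat of 1 RNA, 1 is not dim.

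The gene with the highest difference was Penk, which encodes proenkephalin, the precursor of opioid peptides. Its mean Cy5 signal was 26321 at E12 and 5335 at E11, and its log2 ratio to E14 was 0.30 at E12 and -1.92 at E11, a difference of 2.22 or 4.65-fold. Its other probe gave 1.83. The probe that stands for it lies at chr4:4060735-4060794 (build mm7). Col8a1, a short-chain collagen, had log2 ratios to E14 of -2.67 at E12 and -4.83 at E11, a difference of 2.16. Anxa1, an annexin that binds membranes in a calcium-dependent way, had -1.15 at E12 and -3.30 at E11, a difference of 2.15. Ntrk2, the receptor of brain-derived neurotrophic factor, had -1.08 at E12 and -3.12 at E11, a difference of 2.04, while its ligand Bdnf differed by -0.51. All 4 of these genes were below their E14 level at E11, and Penk alone stood above it at E12.

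The other genes among the 20 highest differed by between 1.48 and 2.13. Mpped1, which encodes a metallophosphoesterase, was the highest of them with a difference of 2.13. Cyp26b1, an enzyme that degrades retinoic acid, had a log2 ratio to E14 of 1.17 at E12 and -0.67 at E11, so that it lay on opposite sides of the E14 level. At E16 and E18 it was lower still, at -2.17 and -3.74. Rgs5, a regulator of G-protein signalling known from pericytes, had 0.38 at E12 and -1.44 at E11. The cell-adhesion genes Dsp, Itgb4 and Col17a1 and the matrix genes Col6a3 and Postn are described with their groups below. Celsr1, a planar polarity cadherin, differed by 1.52, Trp73, a relative of the p53 gene, by 1.57, and Palld, which binds actin bundles, by 1.48. Pgm5 (1.53), Thsd4 (1.52) and the unnamed transcript AK086961 (1.81) complete the set with Tbx1 and Rspo1. Other probes were nearer 0: 0.38 for Trp73, 0.20 and 0.26 for Palld, 0.12 for Pgm5 and 0.41 for Thsd4.

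Wdfy1 had the lowest difference among the genes above background on both arrays, with log2 ratios to E14 of -1.98 at E12 and -0.22 at E11, a difference of -1.76. Its 3 probes ranged from -2.06 to -0.26. Fabp7, a fatty acid binding protein of early glia, had 0.12 at E12 and 1.77 at E11, a difference of -1.66. Fli1, an ETS factor of endothelial and blood precursors, had mean Cy5 signals of 470 at E12 and 1191 at E11. Its log2 ratios to E14 were 0.28 at E12 and 1.85 at E11, a difference of -1.57 that its second probe repeated at -1.58. The probe lies at chr9:32325857-32325916 (build mm7). Tcf15, a helix-loop-helix factor of the somites, differed by -1.56, Hic1, a zinc finger repressor, by -1.55, and Foxc2, a forkhead factor of mesenchyme, by -1.50.

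Fabp7, Fli1 and Foxc2 were close to the E14 level at E12 and stood above it at E11, whereas Hic1 was near the E14 level at E11, at -0.24, and below it at E12, at -1.79. The myeloid granule enzyme gene Mpo differed by -1.48, the neurofilament gene Nefl by -1.28 and the mesodermal homeobox gene Meox2 by -1.34. Shisa3 (-1.39), known to restrain Wnt and FGF signalling in frog embryos, Rgs2 (-1.35), Bcat1 (-1.33), Stk26 (-1.39), Lix1 (-1.37), Zmat4 (-1.54), Efcab7 (-1.55) and the unnamed transcript TC1522119 (-1.76) were also among the 20 lowest. Other probes gave -0.55 for Nefl, -0.47 for Meox2, -0.28 for Rgs2, -0.21 for Bcat1, -0.67 for Lix1 and -0.17 for Zmat4. For Foxc2, Tcf15 and Meox2 the E14 channel was dimmer on the E12 array too, by -0.30, -0.30 and -0.33. Of the 53 genes at least 2-fold lower, 12 had an E14 channel that moved by over 0.25, against 3 of the 117 higher genes. Over all genes, 16219 of 16439 stayed within 0.25. With genes that moved by over 0.25 left out, 114 genes were higher and 41 lower.

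**Figure D2:**
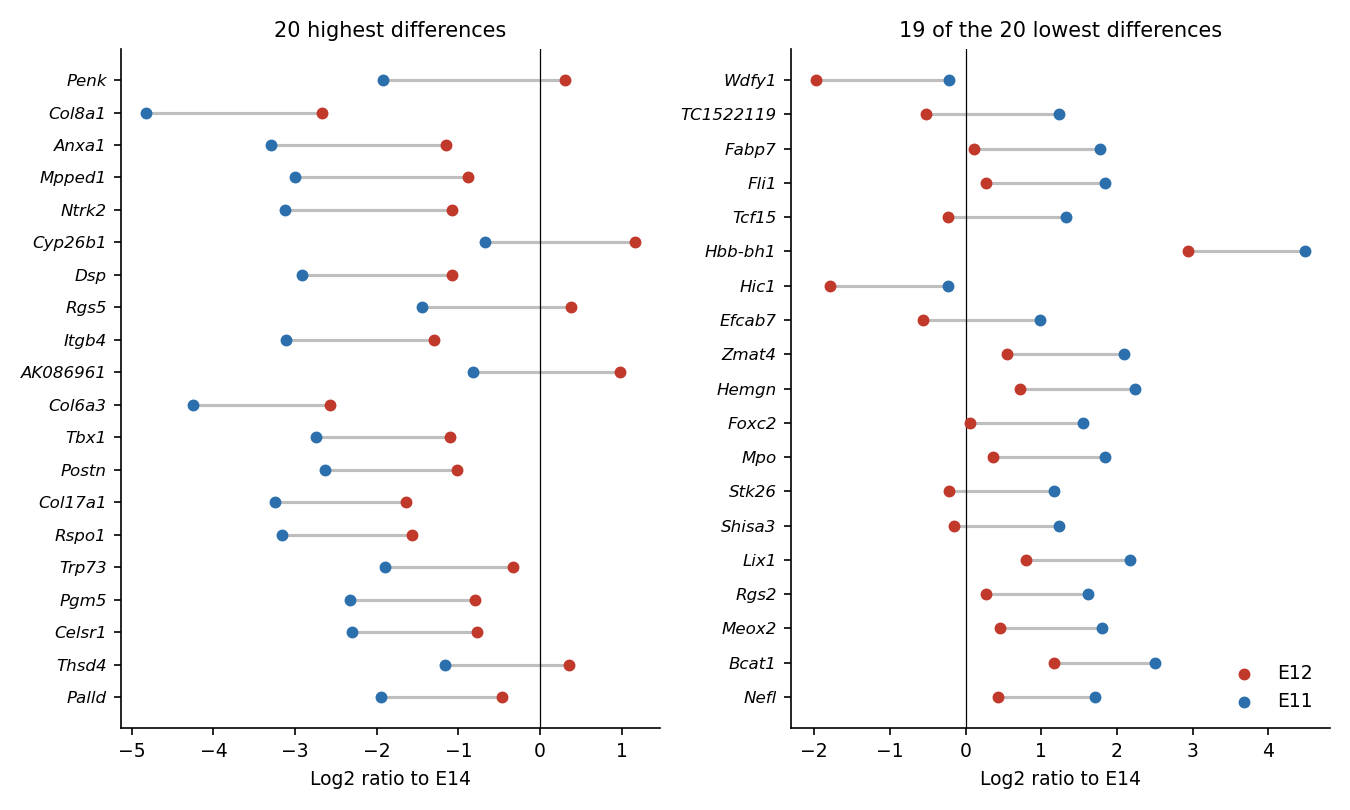
Log2 ratio to E14 at E12 and at E11 for the 20 highest differences and for 19 of the 20 lowest, among genes well above background in Cy5 on both arrays. Each gene has 1 point per stage, with no error bar because there was 1 pool per stage. Most of the higher genes were below E14 at both stages, and most of the lower genes were nearer to E14 at E12 than at E11.

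Genes of epithelial keratins and cell junctions formed the list with the highest median. Of 40 listed genes, 37 were in the comparison, 36 of them above background on both arrays, and Krt4, Dsg3 and Dsc3 were above it on neither. All 37 had a difference above 0, with a median of 0.68 against 0.00 over all genes. At least 2-fold higher were 12, where 0.712% of all genes were, and none was 1.5-fold lower. The median of the E14 channel for these genes differed by 0.03 between the arrays. In whole germs, fewer cells of a type and less RNA per cell cannot be told apart, here and in every group below.

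Krt14, a keratin of basal epithelial cells, had mean Cy5 signals of 23984 at E12 and 7371 at E11 and log2 ratios to E14 of -1.09 at E12 and -2.54 at E11, a difference of 1.45. Its partner in the filament, Krt5, had 19759 at E12 and 7782 at E11, with log2 ratios to E14 of -2.16 at E12 and -3.35 at E11 and a difference of 1.19. Both keratins were below their E14 level at both stages. The other measured keratins of the lists, named after their values were seen, varied widely. Krt19 differed by 1.45, Krt13 by 1.35, Krt7 by 0.68, Krt15 by 0.61, Krt17 by 0.53, Krt18 by 0.46, Krt8 by 0.13 and Krt6a by 0.09. Krt1 and Krt10, of the epidermal list, differed by 0.12 and -0.06.

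Genes of adhesion to the basement membrane and between cells were higher as well. Itgb4, the integrin of hemidesmosomes, had log2 ratios to E14 of -1.30 at E12 and -3.11 at E11, a difference of 1.81, and its other probe gave 1.86. Col17a1, the transmembrane collagen of hemidesmosomes, had -1.64 at E12 and -3.24 at E11, and Dsp, the plakin that ties keratin to desmosomes, -1.08 at E12 and -2.92 at E11. The dimmer probes of both were nearer 0: the other Col17a1 probe gave 0.20, and the other Dsp probes reached down to -0.03. Cdh1, the cadherin of adherens junctions, had -0.60 at E12 and -1.63 at E11, a difference of 1.03. At the low end stood Cldn7 (0.04), Sfn (0.03) and Cldn1 (0.03, above background at E12 only), of which the claudins seal tight junctions.

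The promoters of Krt5 and Krt14 are shown because the encoded proteins pair in 1 filament and both genes were higher at E12. They are the 250 bases before the annotated start, from RefSeq on build GRCm38.p6, read along the gene (both genes lie on the minus strand), at chr15:101712906-101713155 for Krt5 and chr11:100206031-100206280 for Krt14. Capitals mark matches on either strand to any of 4 motifs: the TATA box searched as TATAAA, the core bound by GATA-family factors searched as GATAA, the Klf-family box searched as CCACCC, and the box of NF-Y searched as CCAAT.
Krt5: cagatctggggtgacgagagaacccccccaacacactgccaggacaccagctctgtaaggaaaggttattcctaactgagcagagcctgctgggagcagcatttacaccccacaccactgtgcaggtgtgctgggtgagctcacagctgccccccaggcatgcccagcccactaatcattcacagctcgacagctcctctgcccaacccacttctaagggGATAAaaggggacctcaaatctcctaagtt
Krt14: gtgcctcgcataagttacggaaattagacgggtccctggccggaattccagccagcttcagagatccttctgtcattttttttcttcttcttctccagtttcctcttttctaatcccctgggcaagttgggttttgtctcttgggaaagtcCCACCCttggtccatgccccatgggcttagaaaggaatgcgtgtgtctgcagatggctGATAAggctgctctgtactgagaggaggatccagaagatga
GATAA occurred in both, starting 30 bases before the start in Krt5 and 41 in Krt14, and CCACCC 99 bases before the start in Krt14. These motifs are common: among 32851 promoter windows of this length in the table, 22.6% held GATAA, 28.1% CCACCC, 12.4% TATAAA and 33.8% CCAAT. A match is a match of letters and not evidence of binding, and the letters may belong to another element. Only these exact letters were searched, so variant forms, such as other TATA-like sequences, were not marked.

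Transcription factors of the dental epithelium were higher as a list, with a median of 0.38 over the 24 measured of 32 listed genes. Of these genes 4 were at least 2-fold higher, where 0.712% of all genes were, and 9 at least 1.5-fold higher, where 3.87% were. None was 1.5-fold lower, where 2.63% of all genes were. Tbx1 had mean Cy5 signals of 2905 at E12 and 650 at E11 and log2 ratios to E14 of -1.10 at E12 and -2.75 at E11, a difference of 1.64. Its probe lies at chr16:18131456-18131515 (build mm7). Irx1, an Iroquois homeobox gene, differed by 1.46, with -0.19 at E12 and -1.65 at E11, and its 2 probes ranged from 0.70 to 1.46. Bcl11b, a zinc finger factor, differed by 1.10. Sox2, a factor of epithelial progenitors, differed by 0.39, and Sp6 by 0.16. Isl1 (-0.06), Sox21 (-0.09), Rbpj (-0.18) and Elf3 (-0.19) were at the low end.

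FGF ligands showed no common shift, with a median of 0.11 over the 9 measured of 19 listed genes, 2 at least 1.5-fold higher and none lower. Fgf8, the early signal of the oral epithelium, was far above its E14 level at both stages, with log2 ratios of 2.58 at E12 and 2.96 at E11, a difference of -0.38. Fgf9, another epithelial ligand, differed by 0.11, the mesenchymal ligand Fgf10 by 0.08, and Fgf20 by -0.10. The highest were Fgf18 (0.83) and Fgf13 (0.60), of which the protein of Fgf13 stays inside the cell. Fgf2 (0.06) and Fgf11 (0.34) lay between. Among 17 FGF receptors and feedback genes the median was -0.01 and 1 was at least 1.5-fold lower. That gene was Dusp6, a phosphatase that FGF signalling induces, with -0.83 at E12 and -0.20 at E11, a difference of -0.64. Spry2 (-0.55) and Etv1 (-0.52), also induced by FGF, were next, and the receptors Fgfr2 (0.42) and Fgfr1 (0.40) were at the other end with Spry1 (0.14).

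Hedgehog pathway genes had a median of 0.29 over 16 of 17 listed genes. Shh was dim: its log2 ratios to E14 were -0.77 at E12 and -0.91 at E11. Its mean Cy5 signal was 70.0 at E12 and 46.5 at E11. Since Shh was not well above background at E11, its Cy5 signal gives a nominal bound of 1.10-fold higher at E12. Among genes that hedgehog signalling induces, Gli1 had 0.07 at E12 and -0.57 at E11, a difference of 0.64, Foxf2 differed by 0.69, and Ptch1 and Hhip, chosen after their values were seen, by 0.28 and 0.06, with Hhip above background at E12 only. Gas1, a co-receptor that hedgehog signalling represses, had 0.22 at E12 and 0.88 at E11, a difference of -0.65. The other co-receptors went both ways: Cdon differed by -0.20 and Boc, chosen after its value was seen, by 0.43. The ligand Dhh, above background at E11 only, differed by -0.46.

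Of the Wnt ligands 13 of 18 were measured, with a median of 0.08, 2 at least 1.5-fold higher and none lower. The higher genes were Wnt4 (0.69) and Wnt9a (0.61), followed by Wnt6 (0.57) and Wnt10a (0.57). Wnt10b, above background at E12 only, differed by 0.05. Lowest were Wnt5b (-0.26), Wnt2 (-0.38) and Wnt11 (-0.46). Secreted Wnt inhibitors and R-spondins spread to both sides, with a median of 0.18 over 17 of 20 genes, 5 at least 1.5-fold higher and 2 lower. Rspo1, which potentiates Wnt signalling, had -1.57 at E12 and -3.15 at E11, a difference of 1.59, whereas its relative Rspo2 had 1.15 at E12 and 2.23 at E11, a difference of -1.08. Sostdc1, an inhibitor of BMP and Wnt signals that limits tooth number in mice, had -2.00 at E12 and -3.41 at E11, a difference of 1.41. Kremen2, a co-receptor of Dickkopf proteins, differed by 0.88, Dkk2 by -0.62 and Notum by -0.31.

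Among 14 Wnt response genes the median was 0.23, with 3 at least 1.5-fold higher and 1 lower. Rnf43, a feedback inhibitor of Wnt receptors, differed by 1.02, but its dimmer probe gave -0.05. Sp5 differed by 0.82 and Lef1, the nuclear partner of beta-catenin, by 0.61, with -0.64 at E12 and -1.25 at E11. Ctnnb1 (0.02) and Znrf3 (-0.01) were near 0 and Nkd2 was lowest (-0.66).

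BMP, activin and TGF-beta ligands and antagonists had a median of 0.14 over 25 of 28 genes, with 6 at least 1.5-fold higher and 1 lower. Bmp4, which marks the shift of signalling from the epithelium to the mesenchyme, had -0.24 at E12 and -0.67 at E11, a difference of 0.42. Inhba, the activin chain that the mesenchyme makes, had -1.41 at E12 and -2.43 at E11, a difference of 1.02, and its antagonist Fst differed by 0.75. Bmp6 differed by 1.11, with 0.07 from its other probe, and Tgfb3 by 0.80. Nbl1, a secreted BMP antagonist, was the exception with -0.29 at E12 and 0.92 at E11, a difference of -1.21. Chrd (-0.07) and Bambi (-0.19) were near 0. The Id genes, Smads and BMP receptors had a median of 0.11 over 14 of 15 genes: Id4 (0.54), Smad6 (0.23) and Acvr2b (0.20) were highest, and Id2 (-0.60), Bmpr1a (-0.48) and Id1 (-0.41) lowest.

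All 7 of the 8 listed ectodysplasin pathway genes that were measured lay above 0, with a median of 0.23 and none past 1.5-fold. The receptor gene Edar differed by 0.48 and the receptor Tnfrsf19 by 0.56, with Nfkbia, the inhibitor that NF-kappaB induces, at 0.50. Eda (above background at E12 only), Relt and Traf6 differed by 0.16, 0.11 and 0.08. Notch pathway genes had a median of 0.10 over 17 of 19 genes. The ligand genes Jag1 and Jag2 were highest: Jag1 had -0.76 at E12 and -1.98 at E11, a difference of 1.22, and Jag2 differed by 0.59. Rfng differed by 0.33, Dll4 by -0.15 and Mfng by -0.17, and Heyl, a target in vessel walls, by -0.70.

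Transcription factors of the jaw and dental mesenchyme moved in both directions. Their median was 0.00 over 45 of 47 genes, with 4 at least 1.5-fold higher and 8 at least 1.5-fold lower. Over all genes these shares were 3.87% and 2.63%. Runx2, which bud-stage dental mesenchyme needs and which also drives bone formation, had -0.38 at E12 and -1.45 at E11, a difference of 1.06, and its 4 probes ranged from 0.22 to 1.06. Msx1, required for teeth to pass the bud stage, had -0.03 at E12 and -0.69 at E11, a difference of 0.65. Lhx6 differed by 0.30, Dlx2 by 0.10, Dlx1 by 0.00, Pax9 by -0.09, Lhx8 by -0.19 and Dlx5 by -0.32. Barx1, the mark of the proximal, molar-forming mesenchyme, had 0.34 at E12 and 1.07 at E11, a difference of -0.74. Msx2 differed by -0.71, Foxd1 by -0.90 and Gsc, a factor of the jaw skeleton, by -0.92. Tfap2b, above background at E12 only, differed by 0.83, with 0.13 from its other probe. Foxc2, described above, was the gene of this list that was at least 2-fold lower.

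Genes of the mesenchymal extracellular matrix had a median of 0.48 over 46 of 50 listed genes, of which 46 were above background at E12 and 45 at E11. Their summed normalized Cy5 signal was 81535.5 at E12 and 52551.6 at E11. At least 1.5-fold higher were 18 and lower 1, and 5 were at least 2-fold higher. Over all genes these shares were 3.87%, 2.63% and 0.712%. Col6a3, a chain of microfibrillar collagen, had -2.57 at E12 and -4.24 at E11, a difference of 1.68. Postn, a matricellular protein of the periodontal ligament and periosteum, had mean Cy5 signals of 8116 at E12 and 2287 at E11 and a difference of 1.62. Their other probes gave 0.22 and 0.25, and that of Col8a1 0.25. Tnc, long known from condensed dental mesenchyme, had -0.68 at E12 and -1.56 at E11, a difference of 0.89. Sdc1, a proteoglycan of the same mesenchyme and of epithelium, differed by 0.10. Smoc1, a secreted calcium-binding protein, was the gene at least 1.5-fold lower, with 1.86 at E12 and 2.73 at E11. Vcan (-0.46) and Kera (-0.41) were next.

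Matrix metalloproteases, Adamts and Timps had a median of 0.15 over 26 of 34 genes, led by Adamts15 (0.65), Mmp14 (0.63), the membrane collagenase, and Adamts9 (0.59). Adamts1 (-0.81), Timp1 (-0.50) and Mmp15 (-0.26) were lowest. Dentin, bone and mineral genes had a median of 0.18 over 16 of 22 genes. Besides Runx2 the highest were Pthlh (0.96), a signal that keeps tooth crypts open, and Alpl (0.70), the alkaline phosphatase. Spp1, or osteopontin, which macrophages also make, was lowest, at -1.09. Ifitm5, above background at E12 only, has no direction here: its difference relative to E14 was -0.11 and its nominal Cy5 bound 1.04-fold higher at E12. Dmp1, Dspp and Ibsp, genes of mineralising dentin and bone, were above background on neither array.

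**Figure D3:**
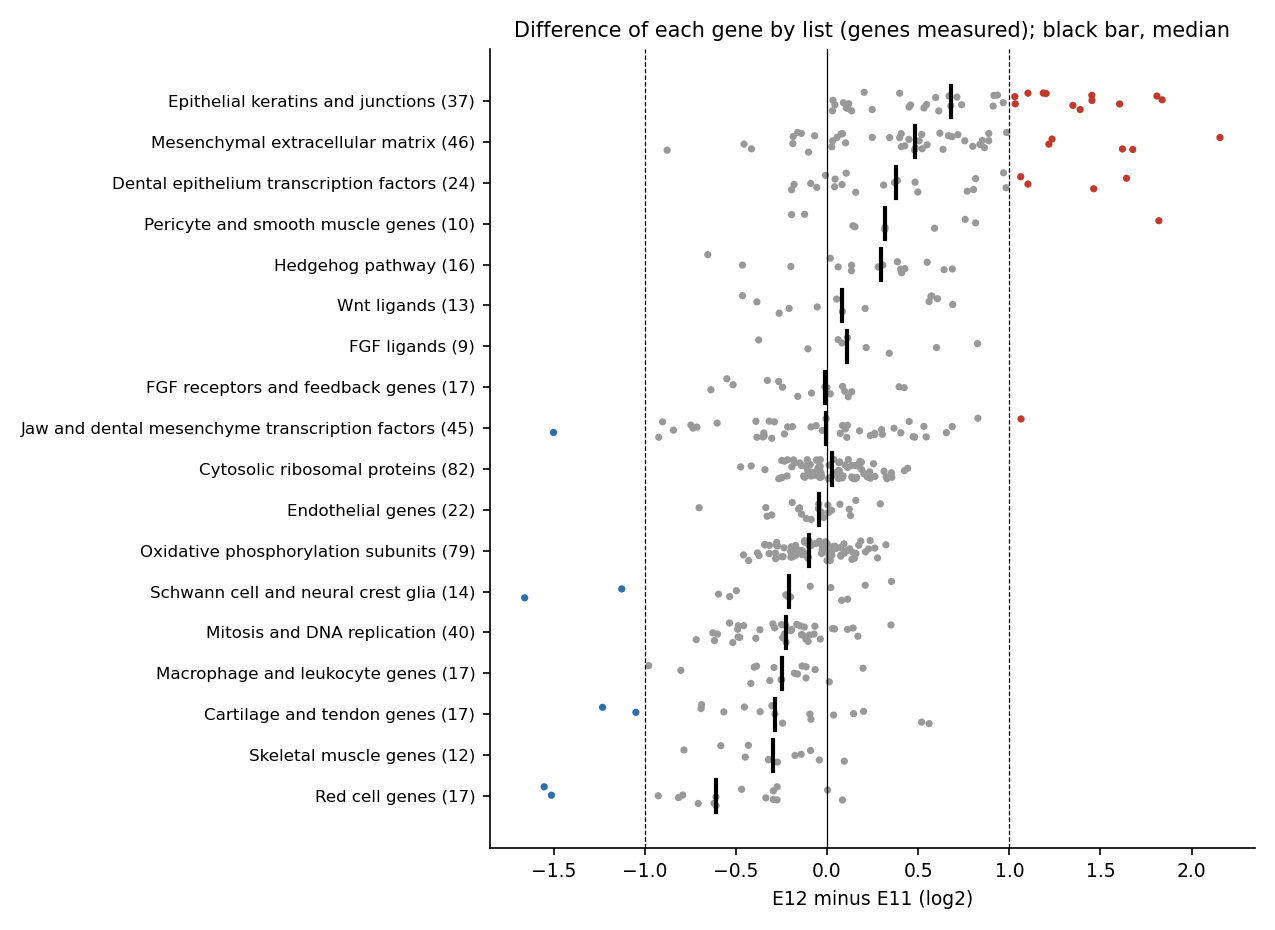
Difference of E12 minus E11 (log2) for each measured gene of 18 lists, with the number of genes in parentheses, 1 point per gene and a black bar at the median. Dashed lines mark 2-fold and coloured points lie beyond them. Every measured epithelial keratin and junction gene lies above 0, 15 of 17 red cell genes lie below 0, and jaw and dental mesenchyme factors spread to both sides.

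Genes of mitosis and DNA replication were lower by a small amount in most cases: 34 of 40 lay below 0, with a median of -0.23, 4 at least 1.5-fold lower and none higher. Over all genes, 8143 of 16439 lay below 0 and 2.63% were at least 1.5-fold lower. Ccne2, a cyclin of S-phase entry, differed by -0.72, Bub1, a checkpoint kinase, by -0.63 and Tyms, which makes thymidylate, by -0.62. Lig1 (0.35), Mcm4 (0.17) and Mki67 (0.14) were above 0. Relative to all genes, this list stayed between -0.24 and -0.20 in every alternative processing run. Among D cyclins and CDK inhibitors the median was 0.03 over 11 of 12 genes, with Cdk6 (0.95) and Ccnd2 (0.55) at the top and Ccnd1 (-0.62) and Cdkn1c (-0.64) at the bottom. Cdkn2c differed by 0.37 and Cdkn1b by -0.23.

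Lin28, Hmga and Igf2bp genes, known for early embryonic expression, had a median of -0.03 over 9 of 12 genes. Mycn, on the same list, differed by -0.74, Lin28b by -0.51 and Hmga2 by -0.27, and Sall4 (0.04), Igf2bp1 (-0.01) and Igf2bp3 (-0.03) were near 0. With the scanner's own log ratios Lin28b was at 0.08. Imprinted growth genes and the IGF system had a median of 0.07 over 26 of 27 genes. Plagl1 (1.15), a zinc finger regulator of imprinted genes, Igfbp5 (1.04) and Igfbp7 (0.92) were highest, and Asb4 (-0.91), Cdkn1c and Igf1 (-0.56) lowest. Cytosolic ribosomal proteins (median 0.03, 82 of 83 genes), oxidative phosphorylation subunits (median -0.10, 79 of 83 genes) and hypoxia and glycolysis genes (median 0.06, 30 genes) had no member past 1.5-fold in either direction. The ribosomal median relative to all genes changed sign between alternatives, from -0.12 with median centring to 0.04.

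Red cell genes formed the list with the lowest median, -0.61, over the 17 of 21 listed genes that were matched by name and measured. Of these 15 lay below 0, 9 were at least 1.5-fold lower and 2 at least 2-fold lower, and 14 were above background at E12 and 17 at E11. Over all genes, 2.63% were at least 1.5-fold lower and 0.322% at least 2-fold lower. Their summed normalized Cy5 signal was 61969.5 at E12 and 101090.2 at E11. Hbb-bh1, an embryonic beta-like globin of primitive red cells, had mean Cy5 signals of 17469 at E12 and 44650 at E11. Its log2 ratios to E14 were 2.93 at E12 and 4.49 at E11, a difference of -1.55, and its other probe gave -1.12. The probe lies at chr7:99898179-99898238 (build mm7). Hbb-y, the other embryonic beta-like globin, had mean Cy5 signals of 38649 at E12 and 58615 at E11 and a difference of -0.93. The adult globin Hba-a1, whose near-identical copy shares its sequence, had -1.64 at E12 and -1.37 at E11, a difference of -0.27. Hemgn, a nuclear protein of erythroid precursors, differed by -1.51, with -0.49 from its other probe. Tspo2 (0.08) and Sptb (0.00) were at the other end.

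The promoters of Hbb-y and Hemgn are shown as members of the red cell list whose genes were lower together. They were taken and marked in the same way, from the minus strand of GRCm38.p6, at chr7:103853208-103853457 for Hbb-y and chr4:46404184-46404433 for Hemgn.
Hbb-y: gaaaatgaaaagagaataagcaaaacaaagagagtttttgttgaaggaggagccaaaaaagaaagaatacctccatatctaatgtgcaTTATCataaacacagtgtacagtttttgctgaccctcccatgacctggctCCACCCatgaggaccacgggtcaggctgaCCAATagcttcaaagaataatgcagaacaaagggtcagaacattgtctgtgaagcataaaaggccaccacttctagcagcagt
Hemgn: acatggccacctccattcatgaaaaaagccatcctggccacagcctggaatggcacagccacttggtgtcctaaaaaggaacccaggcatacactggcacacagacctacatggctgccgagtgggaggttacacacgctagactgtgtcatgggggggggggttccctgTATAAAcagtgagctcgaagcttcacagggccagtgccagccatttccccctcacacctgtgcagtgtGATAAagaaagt
Hbb-y held GATAA on the opposite strand from 162 bases before the start, CCACCC from 112 and CCAAT from 83. Hemgn held TATAAA from 80 bases before the start and GATAA from 12. GATAA thus occurred in all 4 promoters printed, those of the keratins included, and in 22.6% of the 32851 promoter windows. These 4 promoters were picked from both higher and lower genes, so the count describes only them.

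Markers of several other cell types were also lower at E12, and their part in the epithelial and matrix differences was not tested. Macrophage and leukocyte genes had a median of -0.25 over 17 of 20 genes, 15 of them below 0 and 2 at least 1.5-fold lower. Lyz2, the macrophage lysozyme, had -1.87 at E12 and -0.89 at E11, a difference of -0.98, and Pf4 differed by -0.80. Coro1a differed by -0.42, Cd68 by 0.20, Mrc1 by 0.01 and C1qb by -0.07. Cartilage and tendon genes had a median of -0.29 over 17 of 22 genes. Ucma, of cartilage, had 0.01 at E12 and 1.25 at E11, a difference of -1.23, Scx, of tendon progenitors, -0.33 at E12 and 0.72 at E11, a difference of -1.05, and Col9a1 differed by -0.69. Col11a1 (0.56), Sox6 (0.52) and Cnmd (0.20, above background at E12 only) were at the other end. The summed normalized Cy5 signal of the list was 7156 at E12 and 9175 at E11, and for the leukocyte list 3417 at E12 and 5157 at E11.

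Skeletal muscle genes had a median of -0.30 over 12 of 24 genes, of which 7 were above background at E12 and 12 at E11. Those seen at E11 only entered through that stage, so the filter itself leans this median downward. The defining muscle factors Myod1, Myf5, Myf6 and Pax7 were above background on neither array. Tnnt1 (-0.78), Myl1 (-0.58, above background at E11 only) and Myog (-0.45) were lowest and Acta1 (0.09), Actc1 (-0.04) and Myl4 (-0.09) highest, and the summed signal was 989.8 at E12 and 1255 at E11. Schwann cell and neural crest glia genes had a median of -0.21 over 14 of 17 genes. Besides Fabp7, Sox10, the factor that migrating crest and glia share, had 0.01 at E12 and 1.14 at E11, a difference of -1.13, and Gfra3 differed by -0.59. Mbp (0.35), Erbb3 (0.21) and Ngfr (0.11) were above 0. The summed signal of the list was 2396 at E12 and 2794 at E11.

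Neuron genes had a median of -0.12 over 13 of 28 genes, 10 of them above background at E12 and 13 at E11. Ntrk2, which epithelium and mesenchyme can also express, was at the top, with Dcx at 0.22 and Pou4f1 at 0.23. Nefl was the lowest of the list, followed by Nefm (-0.49), above background at E11 only, and Elavl4 (-0.48). Hox genes, which the lower jaw lacks in its crest-derived cells, were above background in 5 of 28 cases. Those were Hoxb3 (0.36), Hoxb6 (0.35), Hoxc4 (0.14), Hoxa3 (-0.14) and Hoxc6 (-0.23, above background at E11 only), with a median of 0.14.

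Endothelial genes had a median of -0.05 over 22 genes, 1 of them at least 1.5-fold lower, Emcn (-0.70). Tie1 (0.29), Eng (0.16) and Flt1 (0.13) were highest, and Cd34 (-0.34) and Apln (-0.33) low. Pericyte and smooth muscle genes had a median of 0.32 over 10 of 12 genes, 4 at least 1.5-fold higher: Rgs5, Tagln (0.82) and the proteoglycan Cspg4 (0.76) led, while the pericyte channel genes Abcc9 (-0.12) and Kcnj8 (-0.19) were at the low end with Mcam (0.14). The summed signal was 10585.7 at E12 and 7864 at E11, and for the endothelial list 9698 at E12 and 11101.5 at E11. The 5 measured sex-linked genes of 6 mix X-linked and Y-linked genes that differed in opposite directions. Their median of -0.42 is the value of Kdm5d and not a common shift. The part of the sexes of the pooled embryos, which the labels leave unstated, was not tested. Xist, the transcript of the inactive X, had -0.81 at E12 and -1.84 at E11, a difference of 1.04, with 0.11 the lowest of its 4 probes. The Y-linked genes Ddx3y, Eif2s3y and Kdm5d differed by -0.74, -0.59 and -0.42, and Tsix by 0.27.

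Retinoic acid genes were split, with a median of -0.15 over 18 of 19 genes. Besides Cyp26b1, Tgm2 (1.25), which retinoic acid induces in many cells, and the receptor gene Rxra (0.59) were highest, though their dimmer probes reached -0.04 and -0.23. Crabp1, a binding protein of crest mesenchyme, had -0.91 at E12 and 0.08 at E11, a difference of -0.98, the receptor gene Rarb, itself induced by retinoic acid, differed by -0.78 and Rxrg by -0.72. Among 36 of 38 axon guidance genes the median was 0.10, with Unc5c (1.09), Slit3 (0.94) and Sema6d (0.90) at the top and Plxna2 (-0.78), Bdnf and Efnb2 (-0.49) at the bottom. Chemokines and their receptors had a median of 0.15 over 11 of 22 genes: Cxcl14 (0.76), Cx3cl1 (0.52), Ackr3 (0.25), Cxcl12 (0.03) and Ccl9 (-0.30).

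Immediate early genes, which respond to handling as well as to signals, had a median of 0.02 over 25 of 29 genes. Klf4 (1.27), Ccn2 (1.15) and Myc (0.93) were highest and Ier2 (-0.71), Maff (-0.41) and Jun (-0.29) lowest, and Fos was above background on neither array. Heat shock and chaperone genes had a median of -0.24 over 17 of 18 genes, with 3 past 1.5-fold each way. The small heat shock genes Hspb8 (1.23) and Hspb1 (0.82) and the co-chaperone Bag3 (0.76) were higher, and Hsp90aa1 (-0.91), Hsp90b1 (-0.66) and Dnaja1 (-0.59) lower.

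Cornified envelope and epidermal genes had a median of 0.03 over 16 of 28 genes, in contrast to the keratin list, and the late markers Flg, Ivl and Krt2 were above background on neither array. S100a14 (0.88), Serpinb5 (0.81) and Lor (0.26) were highest, and S100a9 (-1.23), a protein of neutrophils as well as of epidermis, S100a8 (-0.26, above background at E11 only) and Ly6d (-0.25) lowest. Serpins and S100 proteins had a median of 0.08 over 18 of 23 genes. S100a4 differed by 1.10, Serpini1 by -1.03 and Serpinb1a by -0.38.

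Set against E14 by stage, the lists took different courses. In the epithelial keratin and junction list the median was -1.50 for E11, -0.66 for E12, 0.63 for E16 and 0.08 for E18. The matrix list had -1.56 for E11, -1.04 for E12, -0.52 for E16 and -1.25 for E18, so that its median was below 0 on every array. For dental epithelium factors the order was -0.60 (E11), -0.21 (E12), 0.56 (E16) and 0.08 (E18). Red cell genes had 0.49 for E11, 0.12 for E12, -0.32 for E16 and -0.37 for E18. E16 and E18 were hybridised on another slide, and all 4 values of a list share the E14 pool.

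**Figure D4:**
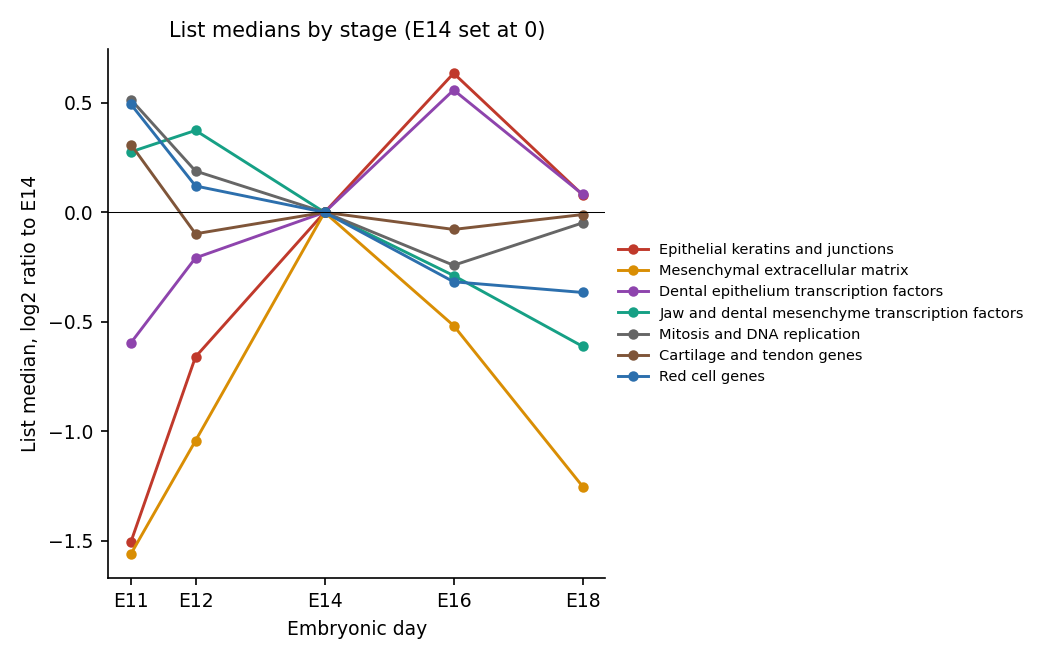
Median log2 ratio to E14 of 7 gene lists at each stage, with E14 set at 0 by construction and 1 array for each other stage. The epithelial list runs from -1.50 at E11 through -0.66 at E12 to 0.63 at E16, and the red cell list from 0.49 at E11 through 0.12 at E12 to -0.37 at E18.

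Probes of the same gene mostly shared a direction and differed in size. Of the 117 higher genes 56 had more than 1 probe in the comparison, and in 50 of them every probe was above 0. Of the 53 lower genes 17 had more than 1, and in 16 every probe was below 0. Their other probes were mostly dim and nearer 0: for the higher genes the median difference of 83 other probes was 0.34, at a median mean Cy5 signal of 170 against 1911 for the brightest probes. For the lower genes 22 other probes had a median of -0.61, at 180 against 861. Bright other probes went both ways. Those of Ptprf (1.19) gave 1.02 and 1.09. Those of Bcl11a (1.01) gave 0.16 and 0.09, at Cy5 signals of 1573 and 2825 at E12. Of Lmo4 (-1.02), 1 other probe gave -0.70 and 1 gave -0.04. With the mean over all probes of a gene in place of its brightest probe, 75 genes were at least 2-fold higher and 41 lower.

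**Figure D5:**
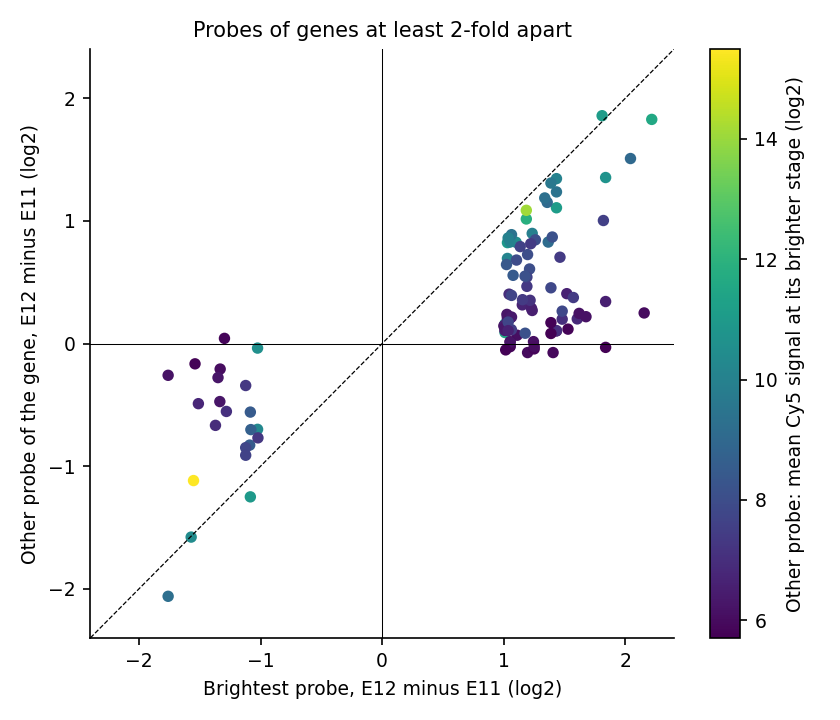
Difference of E12 minus E11 (log2) in the other probes of genes at least 2-fold apart, against that of the gene's brightest probe. Colour gives the other probe's mean Cy5 signal at its brighter stage (log2), and the dashed line marks equal values. Most bright probes lie nearer the line, and most dim probes lie towards 0 on the same side.

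For genes seen on 1 array only, bounds were taken from Cy5 alone, without the E14 channel. They are nominal: where the dim stage's own signal exceeded the lowest signal above background, the bound is the Cy5 ratio itself. The largest bounds upward were Enpep (2.16-fold higher at E12), B3galt5 (2.09), Alox12e (2.06), Lefty1 (2.03), Tfap2b (1.94) and Cidea (1.82). The E14 channel of these 6 was brighter on the E12 array too, by 0.03 to 0.69, the most for Lefty1. Their differences relative to E14 were 0.37 to 1.14, and in 5 of the 6 the Cy5 bound exceeded the fold relative to E14, so that these are not bounds on that fold. The largest bounds downward ran from 2.05-fold to 2.59-fold lower, for ENSMUST00000050885, Olfr1313, Ftdc2, AK053080, Ccl5 and Dlgap1. For these 6 the E14 channel was dimmer on the E12 array as well, by -0.82 to -1.31, the difference relative to E14 was -0.36 to -0.04, and all 6 bounds exceeded the fold relative to E14. Of the genes at least 2-fold apart, 2 higher and 3 lower were above background on 1 array only.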

How the data were processed

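Pooled whole molar germs of each stage were hybridised, per the labels, with E14 in Cy3 and the other stage in Cy5. The labels leave the number of germs and litters in each pool unstated. The deposited scanner output was written by Agilent Feature Extraction 10.5.1.1, per the file headers, with a linear intensity for every spot and channel. Its ratio of the channels (Cy5 to Cy3), background-subtracted and dye-normalized by that software, was deposited on a log10 scale. The deposited value table holds the same log10 ratios: 100% of its values on each array matched within 0.6%, with column medians of 0, which settled scale, centring and direction.

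The log2 scale used here was made anew from the deposited intensity columns, using limma 3.58.1 under R 4.3.3, by normexp background correction (offset 50) on mean signals and median backgrounds, then loess within each array, in which control spots had weight 0. Control and outlier-flagged spots (92 to 126 per array) were left out, no spot was saturated, and spots of a probe were averaged. Of 41174 non-control probes, 24696 had a value on both arrays and passed the background criterion in Cy5 on 1 or both. A gene took its brightest probe. Of 16439 genes, 10902 were named by accession, 1686 by symbol and 827 by synonym through RefSeq genes of GRCm38.p6, and 3024 kept the array's name. Among 5829 genes with several probes, 1 had probes at least 1.5-fold apart in opposite directions. Bounds used Cy5 after loess and Aquantile, set the bright stage against the higher of the lowest signal above background and the dim stage's own, and are open to dye bias. Summed signals and the E14 channel are on that scale, and mean Cy5 signals are as scanned. Probe coordinates are those of the scanner files (mm7). The 1 array per stage allows no interval, and the number of arrays limits the precision.

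The difference step was run on the E11 array against a copy of itself, with noise added and some brighter probes changed by known folds. That simulation holds no second array and no changed dim probes. It therefore cannot show how array effects or dim genes alter the difference. The lists, members and settings were chosen with earlier results of these data known. Named genes are the 20 highest and 20 lowest above background on both arrays, the 6 largest bounds each way, up to 3 at either end of each of the lists (41 in all) and a fixed set of early tooth markers (median 0.30 over 31 measured, 11 at least 1.5-fold higher and 2 lower). Genes named outside this rule were chosen after their values were seen. Some genes that this rule names, 1 of them among the 20 lowest, are not reported here.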

Additional observations from a re-analysis of the deposited data

How the results depend on the processing

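Counts of genes past a fold depended on how dim spots were treated. At least 2-fold higher at E12 were 117 genes, against 184 without background correction, 228 with an offset of 16, 505 with plain subtraction floored at 1, 350 with median centring, 919 with the scanner's log ratios and 75 with the mean over a gene's probes. At least 2-fold lower were 53, against 88 with an offset of 16, 227 with subtraction, 541 with scanner ratios and 95 with Cy5 alone, without the E14 reference. At least 1.5-fold higher were 636, against 1172, 1871 and 2332 with the offset of 16, subtraction and scanner ratios, and 1797 with median centring. At least 1.5-fold lower were 433, against 689, 1200 and 1731 in the same order, 244 with median centring and 654 with Cy5 alone. Dropping the filter, or asking for both arrays above background, moved no count by over 1.5 times, nor did leaving out genes whose E14 channel moved by over 0.25, an alternative chosen after seeing the data.

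With Cy5 alone, 116 of the 117 higher and 50 of the 53 lower genes kept their sign, and no sign changed in the other settings that kept these genes. None of the 16 list medians of at least 0.2 in size changed sign, nor did any of the 142 named genes at least 1.5-fold apart. The sex-linked list, which mixes X-linked and Y-linked genes, is among the 16. Settings that only filter genes mostly reuse the same values, and the mean over probes includes the brightest probe. Every setting uses the same 2 arrays, on which large differences were picked, so kept signs were largely fixed in advance. Of all 291 named genes 21 changed sign in some setting, the largest of them 0.51 in size. Relative to all genes, the epithelial list stayed between 0.61 and 0.98, the matrix list between 0.40 and 0.57, and the red cell list between -0.98 and -0.60. The share of higher genes among 2-fold differences was 62.9% with scanner ratios and 73.5% without genes whose E14 channel moved. No paired analysis was possible because each stage was 1 pool, so no result shows how far litters or dissections vary, and dim genes have compressed or bounded differences.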

Other observations

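For a pair of genes, picked after their values were seen, the E14 channel differed by more than 2-fold between the arrays. AK037469 had the lowest difference of all, -2.19, with an E14 channel 2.08 higher on the E12 array, and was well above background at E12 only. Olfr1181 differed by 1.33, with an E14 channel lower by -1.69 on the E12 array, and was well above background at E11 only.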
